A study of Homo sapiens with 2 samples.

Results

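The 48 keratin genes described here were measured in a pair of stable transfectants of C33-A, an established human cell line of epithelial morphology from a cervical carcinoma. A member is any gene whose platform symbol is KRT followed by a digit and whose probe set carries that single symbol, so the keratin-associated KRTAP genes are not members. The 48 genes have 61 probe sets, out of 41097 single-symbol probe sets of 19775 genes. Of the 48 genes, 44 encode keratin or keratin-like proteins, 3 are keratin pseudogenes and 1 is an antisense RNA. RefSeq lists 55 protein-coding keratin symbols, and the 11 without a member, among them KRT6A, KRT6B, KRT6C and KRT17, were not analysed here.

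The CA9 line was stably transfected with full-length human CA9 cDNA in the vector pcDNA3.0, and the vector line with the same vector without insert. CA9 encodes carbonic anhydrase IX, a membrane enzyme that hydrates carbon dioxide. Both lines grew in RPMI with 10% fetal bovine serum, 1% penicillin and streptomycin, and 5% CO2, their RNA was extracted on day 4, and 5 µg of it was labelled for 1 Affymetrix array per line. Whether either line is a clone or a pool is not stated in the labels. The comparison asks which genes differ between the CA9 line and the vector line. Neither line was replicated and no test was possible, so every difference describes these 2 arrays and cannot be told apart from the spread between cultures or arrays. In RNA from a whole culture, fewer cells expressing a gene and less of its RNA per cell cannot be told apart either.

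Keratins are the intermediate filament proteins of epithelial cells. A filament is built from obligate pairs of an acidic type I and a basic type II keratin, and the pair in use marks the kind of epithelium. KRT8 with KRT18 is the pair of simple epithelia, KRT5 with KRT14 that of the basal layer of stratified epithelia, and KRT1 with KRT10 that of the suprabasal epidermis. In cervical epithelium and its carcinomas, keratins are standard markers of squamous and glandular differentiation. Filaments are anchored to the cell surface at desmosomes and hemidesmosomes.

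The keratin genes were mainly dim, and fell short of genes in general at each limit of brightness used. The first limit, called the floor here, is the median intensity of the non-control probe sets on both arrays together, 40.8. The second is their 75th percentile, 105. Neither is a detection call, which the deposited values do not carry. Of the 61 keratin probe sets, 22 lay above the floor on both arrays, 9 on 1 array and 30 on neither. Since the floor is a median, 50% of all non-control values lie above it, so this count alone does not set keratins apart. Each gene was represented by its brightest single-symbol probe set. That choice favours genes with many probe sets, and keratin genes have fewer each, 61 for 48 genes against 41097 for all 19775 genes. The higher of the 2 arrays lay above the floor for 27 of 48 keratin genes (56.2%), against 69.9% of all genes. Both arrays lay above it for 18 keratin genes (37.5%), against 64.4% of all genes. With the probe sets of each gene averaged, the higher array passed the floor for 25 of 48 keratin genes, against 11972 of 19775 genes. The 75th percentile was passed by 4 keratin genes (8.33%), against 43.1% of all genes, and of these 4 only KRT7 and KRT10 encode a keratin. The KRTAP genes, which encode the matrix proteins of hair, reached 23.5%, 17.6% and 5.88% of 34 genes at the same limits. Probe sets differ in how strongly they bind, so these shares describe the set and do not order single genes by expression. By these limits, among genes that encode a keratin, signal was low in both lines apart from KRT10 and 1 probe set of KRT7.

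**Figure D1:**
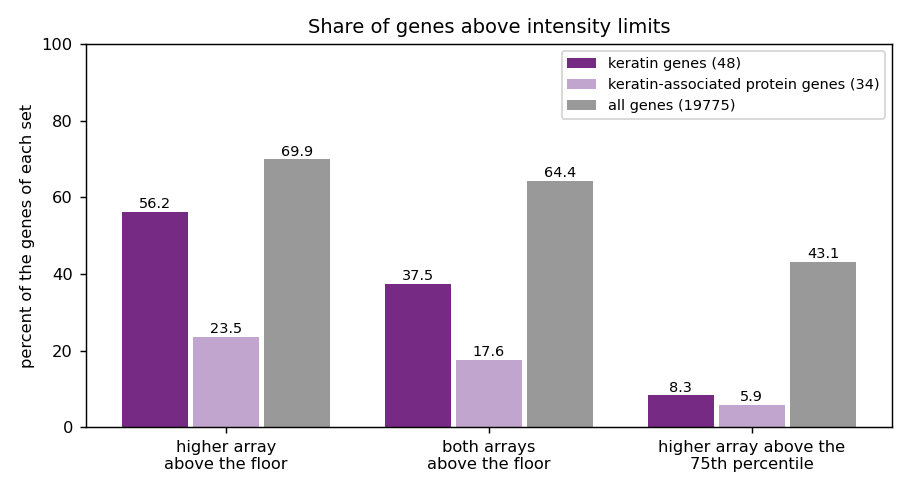
Percent of genes (vertical axis) above 3 intensity limits for the 48 keratin genes, the 34 keratin-associated protein genes and all 19775 genes. The keratin bars stand at 56.2, 37.5 and 8.33%, below the bars of all genes at 69.9, 64.4 and 43.1%.

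Between the lines, 1 keratin gene was at least 2-fold higher in CA9 cells (the background is 0.651% of 13823 measurable genes), and it was a pseudogene. None was at least 2-fold lower (background 0.694%). A measurable gene is one whose higher array lies above the floor. At 1.5-fold, 6 of the 27 measurable keratin genes were higher in the CA9 line, against a background of 5.29%, and 0 were lower, against 4.74%. These 6 were KRT14, KRT15, KRT16, KRT23, KRT85 and KRT8P12. KRT15, KRT16 and KRT23 were measurable only through the CA9 array, where they were high, and their bounds against the floor are at least 1.05, 1.09 and 1.15-fold. When the floor had to be passed on both arrays, 18 keratin genes were left and 3 of them, KRT14, KRT85 and KRT8P12, reached 1.5-fold in that direction (background 3.94%). KRT14 fell short of 1.5-fold under all 3 rescalings of the arrays, at 0.55 to 0.57 on the log2 scale, and KRT85 under 1, at 0.58. With 32 added before log2 only KRT8P12 still passed 1.5-fold, while with probe sets averaged KRT8P12 was the one that did not. The median log2 difference, CA9 line minus vector line, was 0.16 for the 27 measurable keratin genes and -0.03 for all measurable genes. Of the 27, 16 were above 0 and 11 below. In the CA9 line alone 5 of the 27 passed the floor, and in the vector line alone 4. With both arrays above the floor the median was 0.10 over 18 keratin genes, 11 of them above 0, and -0.04 over all such genes. The keratin median was smaller, 0.038, when the medians of both arrays were equalised, and -0.020 over the 4 genes past the 75th percentile. The median of all genes was lower there too, -0.095 with equalised medians and -0.10 past the 75th percentile.

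Dim genes in general lay higher on the CA9 array: of 5307 genes whose higher array fell between the floor and the 75th percentile, 60.1% had a positive difference and the median was 0.10. Of the 23 keratin genes in that range 60.9% were positive and the median was 0.18. The shares of positive differences were thus close to each other. In that range 5 of the 23 keratin genes (21.7%) were at least 1.5-fold higher, against 7.95% of the 5307 genes. At least 1.5-fold lower were 0 keratin genes, against 3.58%. Among the 5, KRT15, KRT16 and KRT23 were measurable only through the CA9 array. This range was chosen after the data were seen. As a measure of technical disagreement, the log2 differences of probe sets of 1 gene, with both arrays above the floor, deviated from their gene's mean with a pooled SD of 0.29, over 5428 genes. That SD is not a replicate error. Of the 27 measurable keratin genes, 15 lay within it of 0, 10 lay above it, against 18.5% of all measurable genes, and 2 below, against 20.7%. Of the 10 above, KRT15, KRT16, KRT23 and KRT79 were measurable only through the CA9 array.

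**Figure D2:**
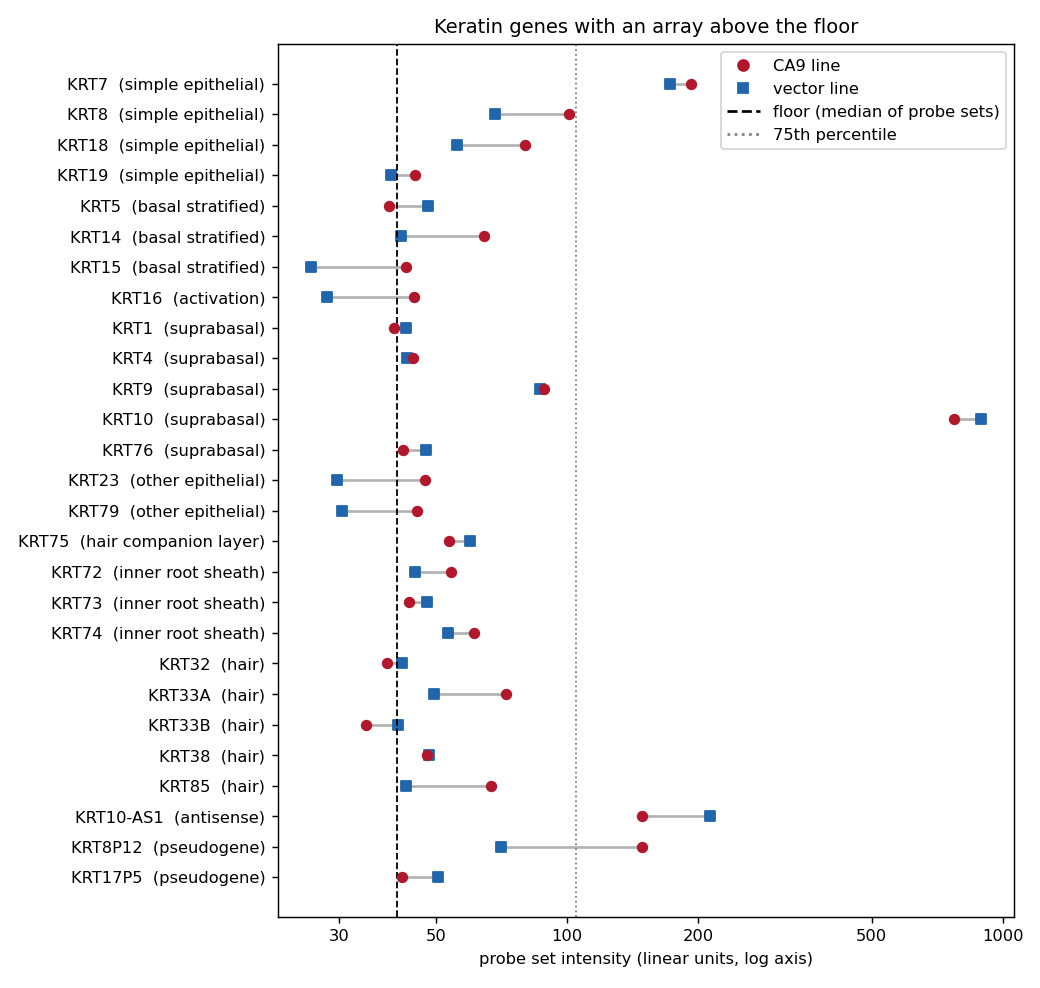
Probe set intensity (horizontal log axis) of the 27 measurable keratin genes in the CA9 line (circles) and the vector line (squares), grouped by class, with the floor at 40.8 (dashed) and the 75th percentile at 105 (dotted). The brighter point lies between both limits in 23 of the 27 genes, KRT10 lies far above them at 775 in CA9 cells and 889 in vector cells, and KRT8P12 has the widest gap.

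Among the simple-epithelial keratins, the partners KRT8 and KRT18 were both dim and both somewhat higher in the CA9 line. KRT8, the type II partner, had an intensity of 101 in CA9 cells and 68.3 in vector cells, a log2 difference of 0.57. KRT18, the type I partner, had 80.2 in CA9 cells and 56.1 in vector cells, a difference of 0.52. Both fell just short of 1.5-fold, at 1.48-fold and 1.43-fold. Both lay above the pooled SD of 0.29 between probe sets of 1 gene, as did 18.5% of all measurable genes. Each was read by a single probe set named _x_at, a kind that can also bind related transcripts, and the human genome holds many processed KRT8 and KRT18 pseudogenes.

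KRT19, the small type I keratin that lacks the usual tail domain, had 44.7 in CA9 cells and 39.4 in vector cells in its brighter probe set, and 29.0 in CA9 cells and 21.1 in vector cells in the other. Only the value of the brighter probe set in the CA9 line passed the floor. KRT20, a keratin of intestinal and urothelial cells, lay below the floor on both arrays, at 20.6 in CA9 cells and 18.6 in vector cells. KRT7, a type II keratin of glandular and transitional epithelia, gave a divided picture. Its brightest probe set had 193 in CA9 cells and 172 in vector cells, a difference of 0.16. Its other 3 probe sets all lay below the floor, with 14.4 to 36.0 in the CA9 line and 13.0 to 36.8 in the vector line. The level of KRT7 is therefore uncertain, since a single probe set of 4 places it above the 75th percentile. The type II gene KRT7 also has an antisense neighbour, KRT7-AS, in RefSeq, and which strand or transcript each probe set reads is not given in the sources used here.

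The basal and activation keratins lay near the floor. KRT14, the type I keratin of basal keratinocytes, had 64.4 in CA9 cells and 41.7 in vector cells, which makes it 1.54-fold higher. Its usual type II partner KRT5 had the opposite sign, with 39.0 in CA9 cells and 48.0 in vector cells, a log2 difference of -0.30. The CA9 value of KRT5 lay below the floor, so KRT5 was at least 1.17-fold lower. KRT15, another type I keratin of basal cells, had 42.7 in CA9 cells and 25.9 in vector cells, and was at least 1.05-fold higher against the floor. KRT16, a type I keratin induced in activated and wounded keratinocytes, had 44.6 in CA9 cells and 28.2 in vector cells, at least 1.09-fold higher. For KRT15 and KRT16 the raw log2 differences of 0.72 and 0.66 pass 1.5-fold, whereas the bounds against the floor are small. Each of these 4 genes was read by 1 probe set.

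KRT10 was the main exception to the dim pattern, with all of its probe sets above both limits. This type I keratin of differentiating keratinocytes was read by 3 probe sets, 1 named _s_at and 2 named _x_at. The first had 775 in CA9 cells and 889 in vector cells, a log2 difference of -0.20. The second had 477 in CA9 cells and 566 in vector cells, a difference of -0.25, and the third had 333 in CA9 cells and 511 in vector cells, a difference of -0.62. All 3 were lower in the CA9 line and all 3 lay well above the floor, while their differences spanned 0.42 on the log2 scale. The first 2 lay within the 0.29 of disagreement between probe sets. Genes past the 75th percentile had a median of -0.10 in general. KRT10-AS1, the antisense RNA formerly named TMEM99, had 148 in CA9 cells and 213 in vector cells, a difference of -0.52. Its RefSeq neighbours include KRT10, which it overlaps on the opposite strand, and it too was lower in the CA9 line.

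Promoter windows of KRT10, KRT10-AS1 and KRT8 are shown because KRT10 and its antisense RNA both passed the 75th percentile, while KRT8 was dim. They come from RefSeq, build GRCh38.p14, and span 250 bases before to 50 after a start site. Capitals mark matches on either strand to the TATA box TATAAA or the GC box GGGCGG, and the AP-1 motif TGANTCA was searched too.
KRT10, chr17:40822565-40822864, minus strand: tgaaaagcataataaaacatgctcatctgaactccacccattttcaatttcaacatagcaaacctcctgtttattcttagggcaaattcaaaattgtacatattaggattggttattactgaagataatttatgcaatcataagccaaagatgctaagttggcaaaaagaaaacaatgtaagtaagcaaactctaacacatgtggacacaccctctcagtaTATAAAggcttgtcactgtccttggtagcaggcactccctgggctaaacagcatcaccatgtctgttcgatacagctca
KRT10-AS1, chr17:40818895-40819194, plus strand: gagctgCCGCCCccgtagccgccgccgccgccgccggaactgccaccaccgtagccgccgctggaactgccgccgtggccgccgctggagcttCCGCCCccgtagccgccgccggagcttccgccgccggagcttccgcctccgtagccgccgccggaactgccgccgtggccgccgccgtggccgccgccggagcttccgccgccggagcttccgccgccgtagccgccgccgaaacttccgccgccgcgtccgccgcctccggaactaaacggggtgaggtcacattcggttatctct
KRT8, chr12:52926420-52926719, minus strand: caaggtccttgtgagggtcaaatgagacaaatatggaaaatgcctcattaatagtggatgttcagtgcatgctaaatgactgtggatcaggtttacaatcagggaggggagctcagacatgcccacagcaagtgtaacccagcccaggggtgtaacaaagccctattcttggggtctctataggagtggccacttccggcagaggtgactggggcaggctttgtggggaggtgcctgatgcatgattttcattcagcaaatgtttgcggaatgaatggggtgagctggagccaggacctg

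The KRT10 window held 1 TATA box, whose first base lies at -29 from the start site. RefSeq gives KRT10-AS1 2 overlapping windows, both inside the KRT10 gene. The one printed held 2 GC boxes, the other held 1 and neither held a TATA box, and the KRT8 window held none of the 3 motifs. RefSeq windows were found for 30 of the 48 members, 35 windows in all. KRT7, KRT14, KRT15, KRT16, KRT18, KRT19 and KRT23 are among the members without a window. Most of the 35 windows belong to keratins of the hair shaft, inner root sheath or companion layer, so the shares below describe mainly these. The TATA box was present in 16 of these 35 windows (45.7%), against 11.5% of 35116 windows of all genes. The GC box was present in 8 (22.9%), against 45.0%, and the AP-1 motif in 0, against 7.71%. Matches are descriptions of these letters in these windows, and the rule that chose the members did not use them. Several keratin genes are recent tandem copies, so their windows are not independent of each other.

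The other suprabasal keratins were dim on both arrays. KRT1, the type II partner of KRT10, had 40.0 in CA9 cells and 42.7 in vector cells, where only the vector value passed the floor. KRT9, a type I keratin of palm and sole epidermis, had 88.6 in CA9 cells and 86.8 in vector cells. KRT4, a type II keratin of mucosal squamous epithelium, had 44.2 in CA9 cells and 43.0 in vector cells, and 41.4 in CA9 cells and 42.8 in vector cells in a second probe set. KRT13, the type I partner of KRT4 in cervical and oral mucosa, had 32.9 in CA9 cells and 19.9 in vector cells, both below the floor, so no fold is given. KRT76, of the oral palate, had 42.1 in CA9 cells and 47.6 in vector cells. Apart from KRT13, none of these differed by more than the 0.29 of disagreement between probe sets. KRT2, KRT3 and KRT12, of epidermis and cornea, lay below the floor on both arrays.

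Among the remaining epithelial keratins, KRT23 and KRT79 were above the floor in the CA9 line alone. KRT23, a type I keratin, had 47.1 in CA9 cells and 29.6 in vector cells, at least 1.15-fold higher. KRT79, a type II keratin of sebaceous and follicular ducts, had 45.2 in CA9 cells and 30.5 in vector cells, at least 1.11-fold higher. KRT24, KRT77, KRT78 and KRT80 lay between 25.6 and 29.7 in CA9 cells and between 23.9 and 29.0 in vector cells. KRT222, a keratin-like gene, was dimmer still, at 12.4 in CA9 cells and 13.4 in vector cells.

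Of 12 hair keratins, which build the cortex and cuticle of the hair shaft, 7 lay below the floor on both arrays. KRT85, a type II hair keratin, had 66.9 in CA9 cells and 42.7 in vector cells, 1.57-fold higher. KRT33A, a type I hair keratin read by a probe set named _x_at, had 72.4 in CA9 cells and 49.5 in vector cells, 1.46-fold higher. Its close relative KRT33B had a negative difference, with 34.5 in CA9 cells and 41.0 in vector cells, just above the floor. KRT38 had 47.6 in CA9 cells and 48.3 in vector cells, and KRT32 had 38.6 in CA9 cells and 41.8 in vector cells. KRT84 had exactly equal values on both arrays, as did 1425 of all 54675 probe sets. KRT31, KRT35, KRT36, KRT37, KRT40, KRT83 and KRT84, the 7 below the floor, ranged from 13.9 to 39.8 in CA9 cells and from 12.7 to 37.7 in vector cells.

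The inner root sheath keratins of the hair follicle showed small differences of both signs. KRT72 had 54.3 in CA9 cells and 44.8 in vector cells, KRT74 had 61.2 in CA9 cells and 53.3 in vector cells, and KRT73 had 43.5 in CA9 cells and 47.7 in vector cells. The second probe set of KRT73, below the floor, had a difference of 0.42, opposite to the -0.13 of the first. KRT25, KRT27 and KRT71 lay below the floor, from 18.1 to 23.2 in CA9 cells and from 17.1 to 26.0 in vector cells. KRT75, of the companion layer, had 53.7 in CA9 cells and 59.9 in vector cells.

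KRT8P12, a KRT8 pseudogene on chromosome 3, was the only member past 2-fold. Its brighter probe set had 149 in CA9 cells and 70.7 in vector cells, 2.11-fold higher with a log2 difference of 1.08. The second probe set had 20.6 in CA9 cells and 30.3 in vector cells, both below the floor, a difference of -0.55. Averaged over both, the difference was 0.26. KRT8P12 is therefore uncertain: its probe sets have opposite signs, and signal from a KRT8 pseudogene cannot be told apart here from that of KRT8, which was itself 1.48-fold higher. KRT17P5, a KRT17 pseudogene, had 41.8 in CA9 cells and 50.6 in vector cells, and KRT19P2 lay below the floor, at 26.3 in CA9 cells and 22.2 in vector cells.

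**Figure D3:**
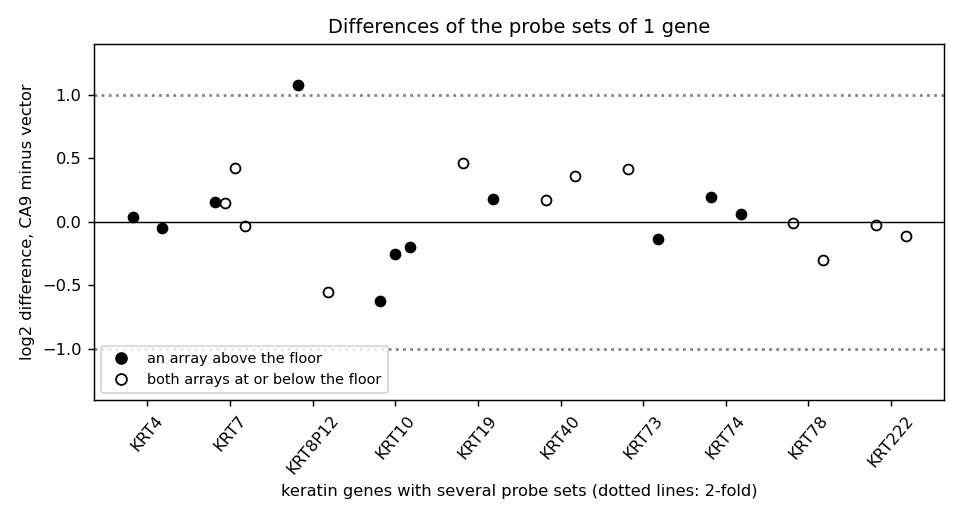
Log2 difference, CA9 line minus vector line (vertical axis), of each probe set of the 10 keratin genes with several probe sets, with filled points where an array lay above the floor. The probe sets lie on 1 side of 0 in 6 of the 10 genes, and those of KRT8P12 lie farthest apart, at 1.08 and -0.55.

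By type, 12 of 23 type I keratins and 12 of 20 type II keratins were measurable. The median log2 difference of the measurable ones was 0.35 for type I and 0.10 for type II, with 8 of 12 and 7 of 12 above 0. With both arrays above the floor the medians were closer, 0.27 over 6 type I genes and 0.16 over 9 type II genes. The type I genes KRT15, KRT16, KRT19 and KRT23 and the type II gene KRT79 were measurable only through the CA9 array. Apart from KRT18, the type I genes lie together on chromosome 17 and the type II genes together on chromosome 12, where KRT18 stands beside KRT8. The median was 0.16 over the 13 measurable keratins of the chromosome 12 cluster and 0.18 over the 11 of the chromosome 17 cluster. With both arrays above the floor it was 0.18 over 10 genes on chromosome 12 and 0.03 over 5 on chromosome 17.

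**Figure D4:**
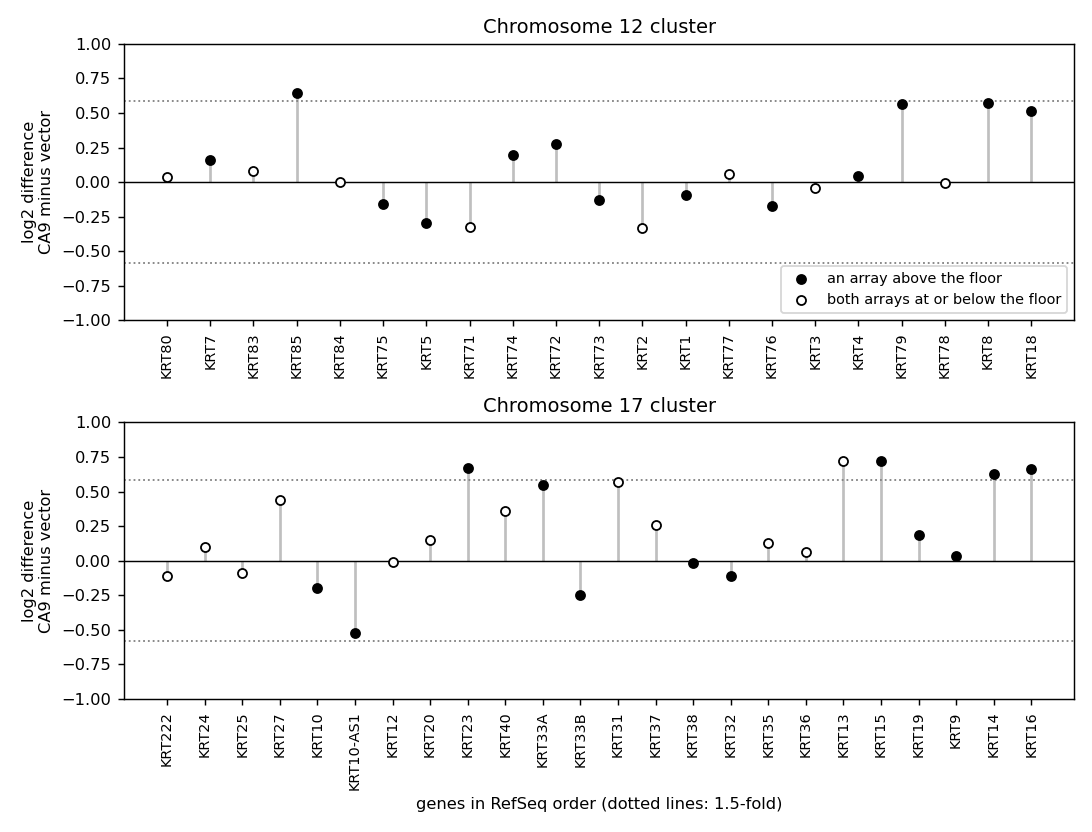
Log2 difference, CA9 line minus vector line (vertical axis), of the brightest probe set of keratin genes in RefSeq order along the clusters of chromosomes 12 and 17, filled where an array lay above the floor, with dotted lines at 1.5-fold. Measurable genes of both signs lie in both clusters, and no keratin lies below the lower dotted line.

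The genes that anchor, organise or regulate keratins were described from lists by role. Of 15 measurable desmosome and hemidesmosome genes, 1 was at least 2-fold lower in CA9 cells (background 0.694%) and none higher (0.651%). Their median was 0.10, and -0.45 among those past the 75th percentile, against -0.10 for all genes past it. DSP, the plaque protein that ties keratin filaments to desmosomes, had 49.4 in CA9 cells and 180.0 in vector cells, 3.64-fold lower. PERP, a desmosomal membrane protein, had a difference of -0.65, and the envelope plakin EVPL one of 0.51. The desmosomal cadherins DSG1, DSG3, DSG4, DSC1, DSC2 and DSC3 lay below the floor on both arrays, and DSG2 passed it only in the vector line, with 35.3 in CA9 cells and 44.9 in vector cells, at least 1.10-fold lower. None of 10 measurable keratin organisers was 2-fold apart (median -0.19), with SFN and TRADD both at -0.39 and the cytolinker PLEC at 0.36.

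Of 12 surface markers of simple epithelium, 7 were measurable and 2 passed the 75th percentile, against 43.1% of all genes. The 7 were CLDN3, CLDN4, CLDN7, MUC1, SPINT1, ST14 and CD24. EPCAM and the epithelial cadherin gene CDH1 lay below the floor on both arrays, EPCAM at 16.4 in CA9 cells and 14.0 in vector cells, and CDH1 at 28.6 in CA9 cells and 19.4 in vector cells. Of the 7 measurable members 1 was at least 2-fold lower (background 0.694%), the surface glycoprotein gene CD24, with 43.5 in CA9 cells and 114 in vector cells, in a probe set named _x_at. Averaged over its probe sets CD24 had -0.64. The claudin gene CLDN3 had a difference of 0.76 and the protease gene ST14 one of 0.32. None of 12 measurable cornified envelope genes was 2-fold apart (median 0.19), with DMKN at 0.62, CALML3 at 0.45 and CNFN at 0.36. None of this list passed the 75th percentile. Of 12 measurable epithelial regulators none was 2-fold apart (median 0.07). Of the 19 regulators 4, CEBPA, CEBPB, KLF5 and PRDM1, passed the 75th percentile (21.1%), against 43.1% of all genes. CEBPB was the brightest, with 809 in CA9 cells and 782 in vector cells. Below the floor on both arrays lay 7, among them the splicing regulator ESRP1 and the grainyhead factors GRHL2 and GRHL3. GRHL1 had 52.9 in CA9 cells and 54.1 in vector cells. In the same list KLF4 was at least 1.42-fold higher, and ELF3 and FOXA1 had -0.57 and -0.46.

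Of 15 intermediate filament genes of other families 12 were measurable and 7 passed the 75th percentile (46.7%), close to the 43.1% of all genes. VIM, the filament protein of mesenchymal cells, had 2867 in CA9 cells and 1131 in vector cells, 2.53-fold higher. Its difference was 0.78 with its probe sets averaged. NEFH, the heavy neurofilament subunit, had 838 in CA9 cells and 233 in vector cells, 3.60-fold higher. INA, internexin, had a difference of -0.92. The list's median was 0.30. Of 8 mesenchymal regulators and markers 6 were measurable and 2, TWIST1 and ZEB1, passed the 75th percentile, against 43.1% of all genes. TWIST1 had 1688 in CA9 cells and 1525 in vector cells. None of the 6 was 2-fold apart (median 0.16), with ZEB1 at -0.64, CDH2 at 0.36 and TWIST2 at least 1.13-fold higher. Markers of fibroblasts, endothelium and blood held no gene 2-fold apart among 11 measurable, and their medians were 0.14, 0.20 and -0.14. Farthest from 0 was PTPRC, at -0.95, with 30.1 in CA9 cells and 58.1 in vector cells, at least 1.42-fold lower. CD14 followed at 0.63 and THY1 at 0.55. The blood median was 0.31 with probe sets averaged and 0.24 without those named _x_at or _s_at, and the fibroblast median was -0.09 without those. Their part in any keratin difference was not tested.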

How the data were processed

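The data are 1 Affymetrix array of the CA9 line and 1 of the vector line. The authors deposited 1 intensity per probe set and array, which the submitters' processing notes credit to RMA. The version and probe definitions are not given in the sources used here. The values are linear, from 6.79 to 17091 in CA9 cells and from 7.19 to 16842 in vector cells, and were put on log2 without a pseudocount.

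Symbols came from the platform annotation, and 41043 of 41097 single-symbol probe sets matched RefSeq (GRCh38.p14) by Entrez ID. No keratin symbol changed. CA9 has no probe set in that table, so the transgene was not analysed here. Genes were called by size, at 2-fold. A fold against an array at or below the floor is a bound set against the floor. The members, lists and classes were chosen with earlier results of these data known. Named genes followed a fixed rule: every keratin gene above the floor on either array, and the main simple-epithelial and basal keratins. Of each list other than the cell type markers, the rule took the genes 2-fold apart, filled to 3 with those farthest from 0. Others, such as KRT13, EPCAM, CDH1, ESRP1, CEBPB, TWIST1, the desmosomal cadherins and the cell type markers, were named after their values were seen. The steps were tested on simulated data. Shifts were given only to genes more than 2-fold above the floor on both arrays, so calls near the floor were not tested. Alternatives changed the probe set, the floor, the scaling, the pseudocount or the fold. Calculations ran in Python 3.11.15 with pandas 2.3.3, numpy 2.4.6 and, for loess, statsmodels 0.14.6. The number of arrays limits the precision.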

Additional observations from a re-analysis of the deposited data

How the results depend on the processing

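No paired analysis was possible because there is 1 array per line. The count of measurable keratin genes, 27, was 4 with the floor at the 75th percentile and 45 with it at the 25th, and lay between 18 and 28 in the other alternatives. The single gene past 2-fold, KRT8P12, was lost (0 genes) when probe sets were averaged or when 32 was added before log2, and a 1.5-fold rule gave 6 genes. The count of keratin genes at least 1.5-fold higher, 6, ran from 1 with the higher floor or with 32 added to 7 with the lower floor. The keratin median of 0.16 was -0.020 over the 4 genes past the higher floor and 0.038 when array medians were equalised, and otherwise ran from 0.07 to 0.18. The median of all measurable genes, -0.03, was -0.10 with the higher floor and -0.095 with equalised array medians. The 4 companion genes past 2-fold became 2 with averaged probe sets, where CD24 and VIM fell short at -0.64 and 0.78. They also became 2 when _x_at and _s_at probe sets were left out, where CD24 and VIM have no value. Their count was 5 with array medians equalised, with quantile normalization and with loess. It was 3 with 32 added before log2, where CD24 had -0.96. At 1.5-fold there were 13. Over all genes the count past 2-fold, 186, was 92 with averaged probe sets, 61 with 32 added, 122 with the higher floor and 1386 at 1.5-fold. Of the 27 measurable keratin genes, 24 kept their sign in every alternative that could be computed, and KRT4, KRT9 and KRT73 changed it in at least 1. The median of the epithelial regulators, 0.07, was -0.13 with averaged probe sets and -0.15 without those named _x_at or _s_at. It was -0.07 with the higher floor and -0.03 with both arrays above the floor. The median of the mesenchymal regulators and markers, 0.16, was -0.25 with the higher floor. Without probe sets named _x_at or _s_at, 7 of the 27, KRT4, KRT8, KRT10, KRT18, KRT23, KRT33A and KRT17P5, have no value. Most keratin values lie close to the floor, so small differences among them rest on dim signals. The causes of these changes were not tested.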
